A study of Pan troglodytes with 8 samples.

Results

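The genes described here are the pore-forming and accessory subunits of the voltage-gated sodium and calcium channels in chimpanzee cerebral organoids, measured in 4 sorted cell populations. They were chosen by symbol, as every row of the chimpanzee count table named SCN or CACN with a subunit letter and no hyphen, which gave 40 of 60583 named rows. These are 10 sodium channel alpha subunits, 4 sodium channel beta subunits, 10 calcium channel alpha1 subunits, 4 alpha2delta, 4 beta and 8 gamma subunits. All 40 passed the filter on low counts and were tested, and 29 reached a mean of at least 10 CPM (counts scaled to library size) in at least 1 population.

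The organoids came from 1 induced pluripotent stem cell line, SandraA (Pan troglodytes), and were taken in week 8 of culture, within 3 days either way. Cells were sorted by fluorescence into apical radial glia (aRG), the stem cells at the ventricle, basal radial glia (bRG), stem cells away from it, basal intermediate progenitors (bIP), their short-lived dividing offspring, and BCL11B-positive neurons (N). Each population had 2 libraries from 10000 cells each, and the series title sets them in work on the shape-regulating genes of basal radial glia. No genotype or treatment separates the groups, all of which share the one line and the one age, so nothing here speaks to differences between individuals. Whether the paired libraries were made from separate cultures is not stated in the labels. The p-values therefore rest on library-to-library spread that could be purely technical.

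Voltage-gated sodium channels open on depolarisation and carry the rising phase of the action potential. Each is 1 large alpha subunit, which forms the pore, with beta subunits that alter gating, take the channel to the membrane and also act as adhesion molecules. Voltage-gated calcium channels turn depolarisation into calcium entry for transmitter release, gene regulation and growth. Their alpha1 subunit forms the pore, while alpha2delta and beta subunits carry it to the membrane and tune it. The symbol does not guarantee that role for every gene. SCN7A encodes a sodium-sensing channel that voltage does not open, and most gamma subunits, CACNG2, CACNG3, CACNG4, CACNG5, CACNG7 and CACNG8, are better known as regulators of AMPA-type glutamate receptors.

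Channel transcripts were higher in N and bIP than in aRG for much of the family, with few exceptions in the other direction. Summed over the 40 genes, the level was 818 and 906 CPM in the aRG libraries, 985 and 1527 in bRG, 2210 and 2223 in bIP, and 3844 and 4783 in N. The 4 populations did not overlap in this sum. It leans on a few genes: in N the largest means were CACNG8 565, SCN3B 551, CACNA1A 538, CACNA1E 450 and SCN2A 405 CPM. The highest mean was in N for 26 genes, in bIP for 9, in bRG for 4 and in aRG for 1. In these sorted bulk samples, fewer cells of a type and less RNA per cell cannot be told apart.

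Library totals were 24649971 to 33245892 counts. Radial glia markers (SOX2 and VIM first on the list of 8) summed to 3068 and 3274 CPM in aRG, 2142 and 1984 in bRG, 494 and 542 in bIP, and 160 and 80.9 in N, with HES5 listed at 0 in every library although it held 3683 counts on the human genome. Intermediate progenitor markers (EOMES, PPP1R17 and 4 more) reached 2986 and 3886 CPM in bIP against 256 to 708 in the other libraries. Neuron markers (BCL11B, STMN2 and 6 more) summed to 403 and 828 CPM in aRG, 891 and 1737 in bRG, 2597 and 3069 in bIP, and 5585 and 5303 in N, and none of the 8 was at 0. Choroid plexus markers (TTR, CLIC6 and 4 more) were at 887 and 3246 CPM in aRG and 37.1 to 77.3 elsewhere. Mesenchyme and vessel markers (COL1A1, COL3A1 and 8 more) were at 429 and 2045 CPM in aRG and 44.2 to 378 elsewhere. In that list COL1A1, COL3A1, COL1A2, LUM, DCN, PDGFRB and MYH11 had their highest mean in aRG. ACTA2 and the vessel genes PECAM1 and CDH5 had theirs in N, so the sum does not speak for vessel cells. Markers of other cell types summed to less: GABAergic neuron (GAD1, GAD2) 3.98 to 17.9 CPM, skeletal muscle (MYOD1, MYOG) 19.9 to 39.0, oligodendrocyte lineage and astrocyte (OLIG1, OLIG2) 4.49 to 52.5, photoreceptor (CRX, RCVRN) 7.81 to 22.7, and microglia (AIF1, CX3CR1) 0.584 to 3.02. The genes named do not carry all of these sums. In aRG 1, GFAP gave 37.6 of the 52.5 CPM, and OLIG1 and OLIG2 gave 0.315 and 0.787. In aRG 2, ARR3 gave 16.6 of the 22.7 CPM of the photoreceptor list. In bIP 1, MYOD1 was at 0 and MYOG at 0.816 of the 39.0 CPM of the muscle list. AIF1 and C1QA were listed at 0 on the chimpanzee genome and held 255 and 25 counts on the human one, so the microglia sum rests on the other 2 genes of its list. Thus the neuron marker sum ordered the populations as the channel sum did, and its part in the channel differences was not tested. The means of BCL11B, by which N is defined, STMN2, TBR1, SNAP25, GAP43 and DCX had the order of the sum. RBFOX3 did not, at 178 and 223 CPM in bIP against 154 and 121 in N. Nor did MAPT, with a mean of 203 CPM in bIP against 254 in bRG.

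In N against aRG, 18 of the 40 genes (45%) were higher and 1 was lower at an adjusted p under 0.05, by edgeR's quasi-likelihood test with Benjamini-Hochberg adjustment over all 35382 genes tested, which is the test behind every adjusted p below unless DESeq2 is named. Over all genes, 4.87% were higher and 4.80% were lower in this comparison. The median log2 difference was 1.22 for the channel genes and -0.08 for all genes. DESeq2 called 20 of the 40 higher and 1 lower. Over all genes DESeq2 called 2522 of 32088 higher, and 5303 in either direction. Differences below are log2 fold changes ± standard error (SE), and a gene is called where its adjusted p is under the threshold.

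In bIP against aRG, 10 of the 40 (25%) were higher and none was lower, where 1.34% of all genes were higher and 1.50% lower. The median log2 difference was 0.89 for the channel genes and 0.05 for all genes. DESeq2 called 14 higher and 0 lower. Over all genes DESeq2 called 1081 of 30118 higher, and 2282 in either direction. At an unadjusted p under 0.05, 15 were higher in the edgeR fit and 0 lower, but the share of all genes at that threshold was not computed.

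**Figure D1:**
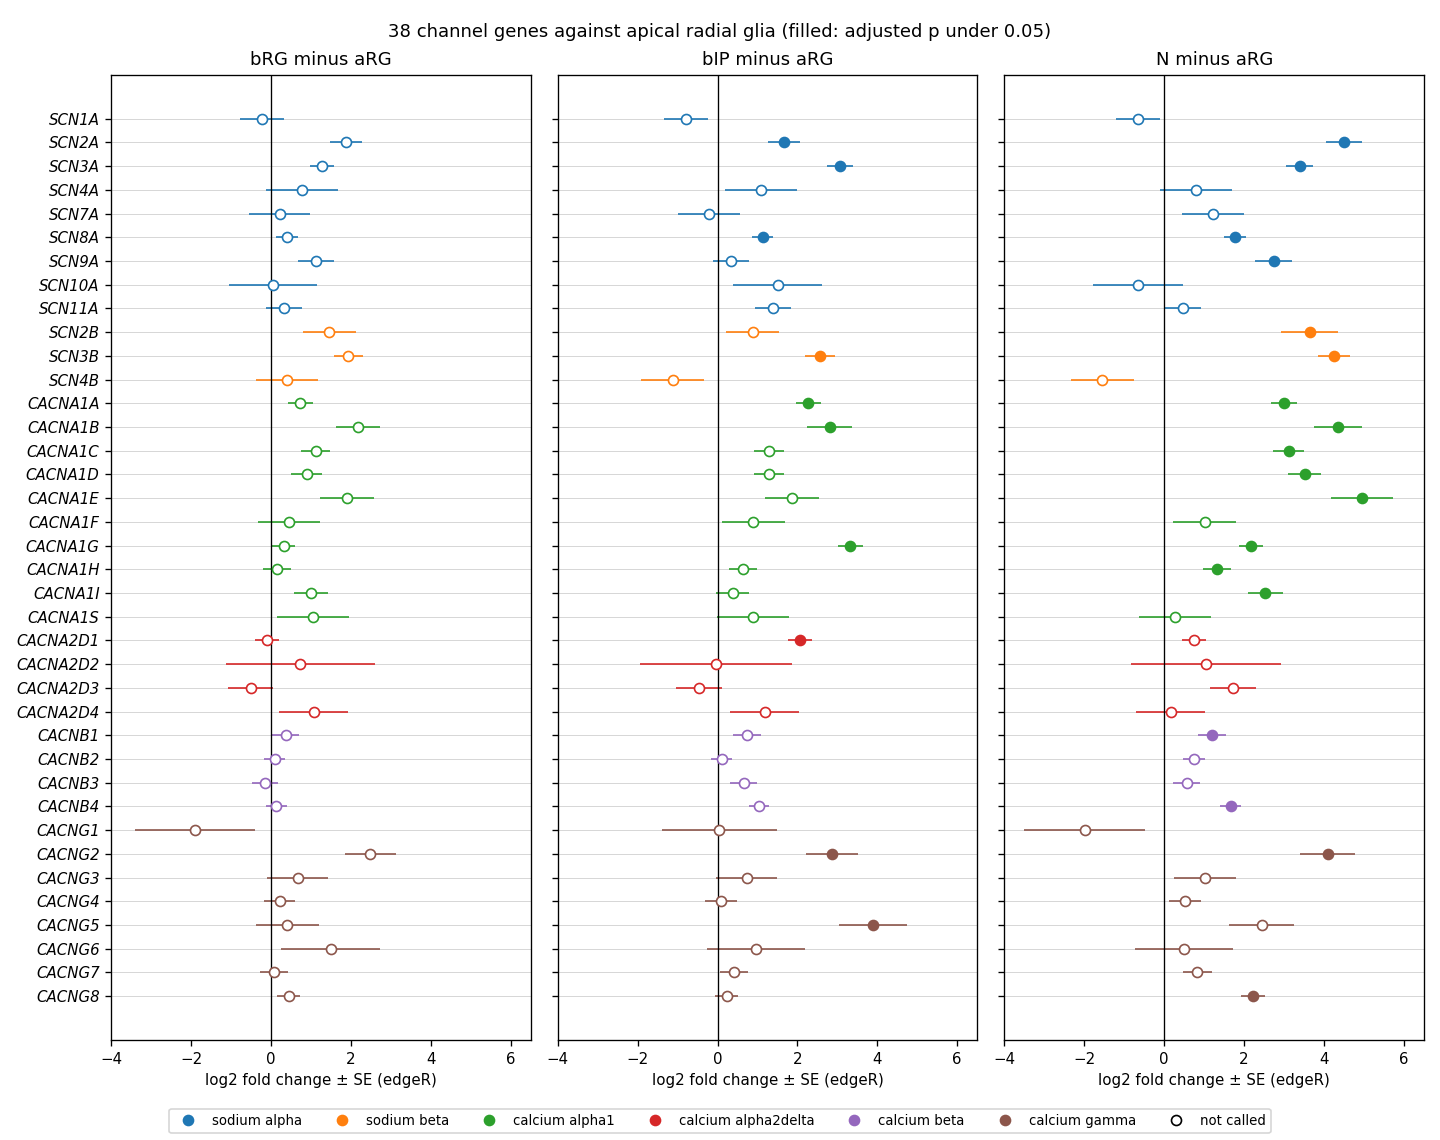
Log2 fold change ± SE of 38 channel genes in bRG, bIP and N against aRG, coloured by family, with filled points for an adjusted p under 0.05 in edgeR. Filled points number 0 in the bRG panel, 10 in the bIP panel and 18 in the N panel, and all of them lie above 0.

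Among the 10 sodium channel alpha subunits, SCN2A, SCN3A, SCN8A and SCN9A were higher in N than in aRG. SCN2A (Nav1.2), the alpha subunit of early axons, was at 16.8 and 18.8 CPM in aRG, 55.6 and 75.7 in bRG, 83.1 and 29.3 in bIP and 399 and 410.0 in N. The N libraries stood far above the other 6, and the bIP libraries spanned those of bRG. The N mean exceeded aRG by 4.50 ± 0.45 on the log2 scale, 22.7-fold (adjusted p = 6.25e-05), bRG by 2.62 ± 0.41 (adjusted p = 0.0026) and bIP by 2.85 ± 0.41 (adjusted p = 0.00366). The bIP difference from aRG of 1.66 ± 0.40 (adjusted p = 0.0476) was not called without aRG 1, aRG 2 or bIP 1, and without bIP 1 it was 0.71, adjusted p = 0.476. The N difference from bIP was 3.79 without bIP 1 and was still called.

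SCN3A (Nav1.3), the alpha subunit typical of the fetal brain, was already high in the intermediate progenitors. It was at 17.4 and 27.8 CPM in aRG, 47.4 and 62.0 in bRG, 151 and 226 in bIP and 232 and 243 in N. No 2 populations overlapped, although bIP 2 lay close to the N libraries. bIP exceeded aRG by 3.06 ± 0.33, 8.33-fold (adjusted p = 0.000602), and bRG by 1.78 ± 0.31 (adjusted p = 0.0188). That second call was lost without bRG 1 or bIP 2 (adjusted p = 0.0948 to 0.132). In N it exceeded aRG by 3.39 ± 0.33 (adjusted p = 5.44e-05) and bRG by 2.12 ± 0.31 (adjusted p = 0.00181), while N and bIP differed by 0.33 ± 0.30 (adjusted p = 0.663), which did not pass.

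SCN8A (Nav1.6), which takes over at mature axon initial segments and nodes, changed less. Its libraries read 44.9 and 33.9 CPM in aRG, 45.1 and 58.8 in bRG, 80.7 and 91.2 in bIP and 131 and 139 in N. The N libraries were above all others, and bIP above both radial glia populations. The N level exceeded aRG by 1.78 ± 0.27 (adjusted p = 0.00119), 3.43-fold, and bRG by 1.38 ± 0.27 (adjusted p = 0.00984), the latter not called without bRG 1 (adjusted p = 0.123). The bIP rise over aRG of 1.13 ± 0.27 (adjusted p = 0.0468) was lost when any 1 of the 4 aRG and bIP libraries was left out (adjusted p = 0.0959 to 0.325).

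SCN9A (Nav1.7), best known from pain-sensing neurons, was at 4.56 and 5.22 CPM in aRG, 9.40 and 12.0 in bRG, 7.15 and 5.19 in bIP and 44.5 and 20.8 in N. Both N libraries exceeded the other 6 but differed widely from each other. N exceeded aRG by 2.74 ± 0.47 (adjusted p = 0.00237), which was 2.08 without N 1, and exceeded bIP by 2.40 ± 0.46 (adjusted p = 0.0166). The difference from bIP was lost without bIP 2 or N 1 (adjusted p = 0.105 to 0.122). The difference from bRG, 1.61 ± 0.45 (adjusted p = 0.0569), was called without bIP 2 or N 2 (adjusted p = 0.0254 to 0.0498).

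The other sodium alpha subunits given here were called in no comparison. SCN1A (Nav1.1), the alpha subunit of many inhibitory neurons later in life, was at 20.5 and 9.79 CPM in aRG, 13.8 and 12.1 in bRG, 11.7 and 5.78 in bIP and 13.8 and 5.27 in N. All 4 populations overlapped in range except bRG and bIP, and N minus aRG was -0.66 ± 0.56 (adjusted p = 0.556). A separate row for the antisense gene SCN1A-AS1 held 787 counts over the 8 libraries against 2592 for SCN1A, and since neither step of this protocol marks strand, reads of the pair cannot be told apart. SCN11A (Nav1.9), another sensory neuron subunit, was at 5.47 and 9.82 CPM in aRG, 7.81 and 11.4 in bRG, 17.7 and 22.1 in bIP and 8.78 and 12.4 in N. Its bIP libraries were the highest 2, and bIP minus aRG was 1.38 ± 0.45 (adjusted p = 0.16), with an adjusted p of 0.0382 in DESeq2. A further 3 stayed under 10 CPM in every population: SCN4A of skeletal muscle (0.433 to 1.69 CPM over the 8 libraries), SCN7A (1.03 to 3.93) and the sensory neuron subunit SCN10A (0.345 to 2.33). SCN1A, SCN2A, SCN3A and SCN9A are close paralogs, so reads in shared sequence could be split among them by the counting, which is not described in the sources used here.

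**Figure D2:**
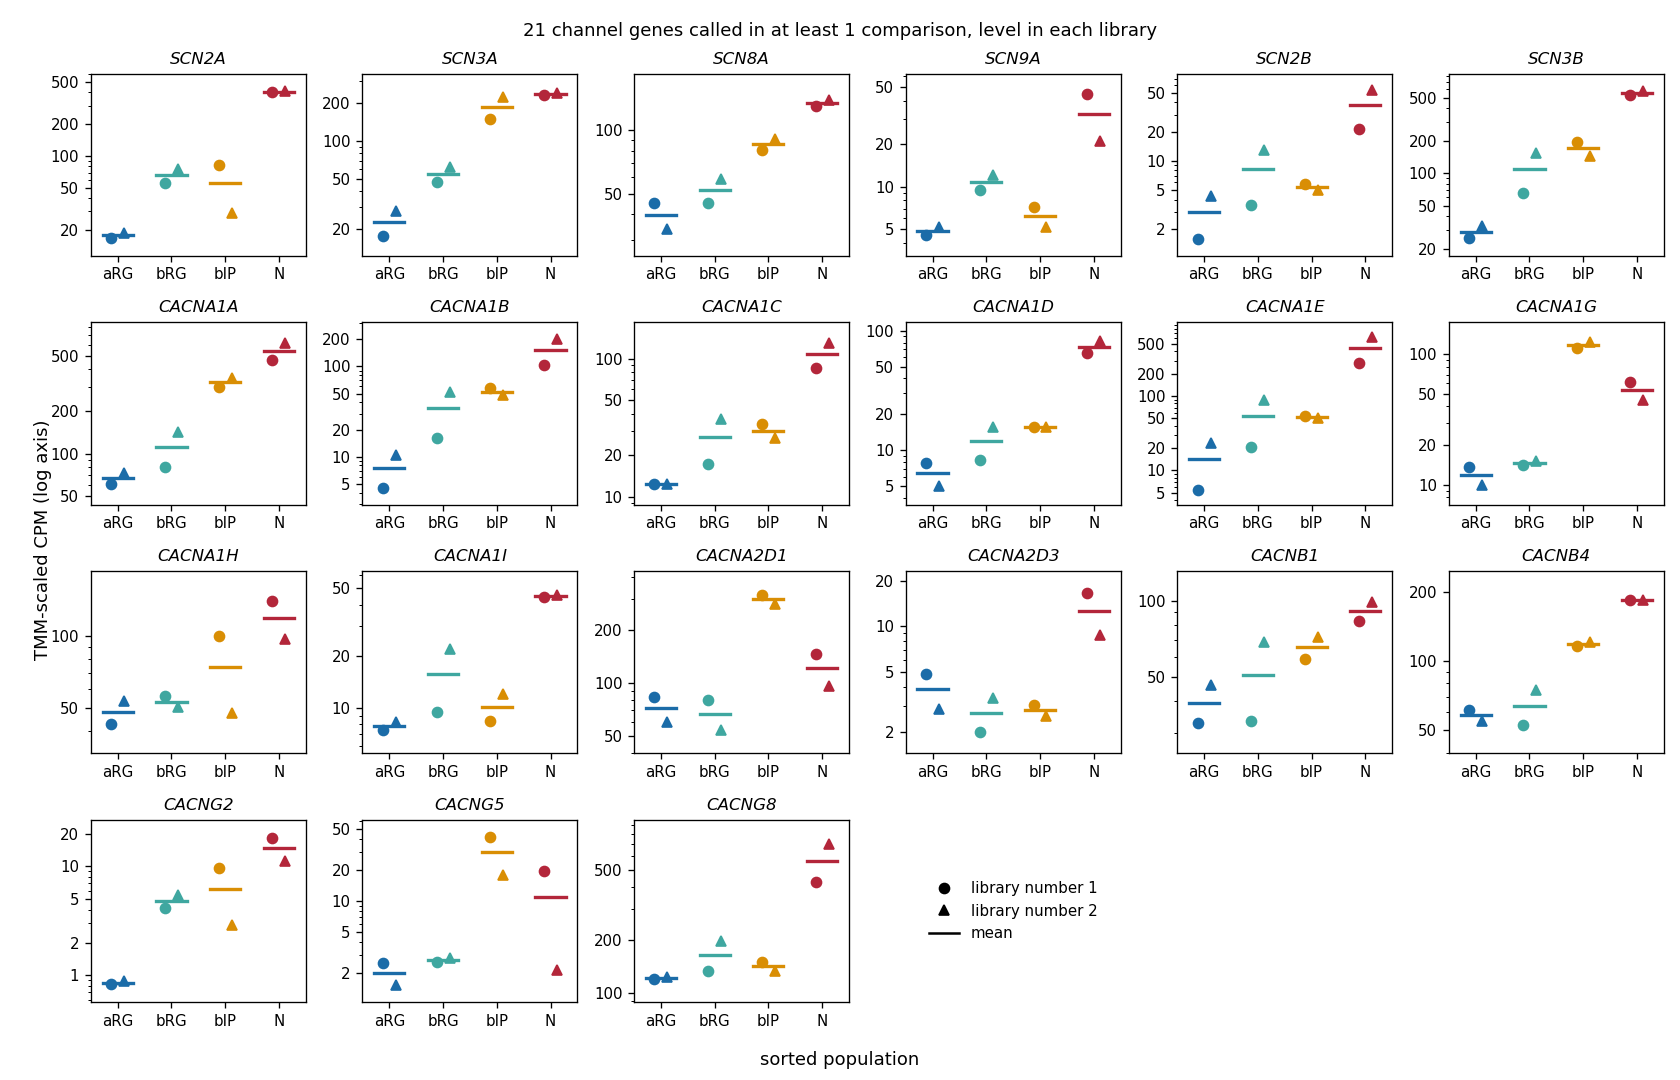
TMM-scaled CPM (log axis) in each library of 21 channel genes called in at least 1 comparison, by sorted population, with circles for library number 1, triangles for number 2 and a line at the mean. CACNA1G, CACNA2D1 and CACNG5 peak in bIP, and the other 18 have their highest mean in N.

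SCN2A and SCN3A lie next to each other in the genome (RefSeq, assembly NHGRI_mPanTro3-v2.0), and their ratio within a library does not depend on scaling between libraries. The ratio of SCN2A to SCN3A counts was 0.964 and 0.678 in aRG, 1.17 and 1.22 in bRG, 0.549 and 0.130 in bIP, and 1.72 and 1.69 in N. It was lowest in the 2 bIP libraries and highest in the 2 N libraries. As transcript lengths were not used, its change between libraries can be read but not its distance from 1. No test of this ratio was run.

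**Figure D3:**
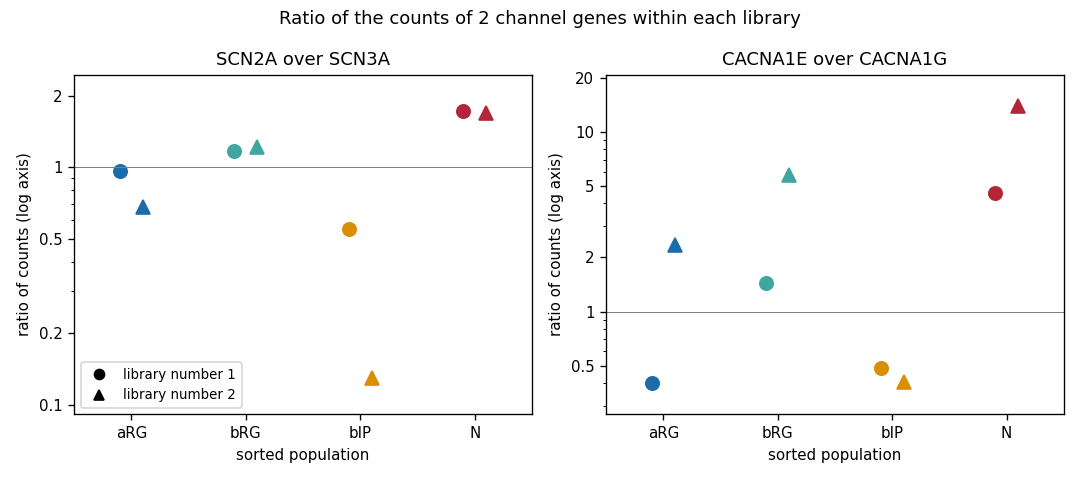
Ratio of the counts of SCN2A to SCN3A (left) and of CACNA1E to CACNA1G (right) in each of the 8 libraries, on log axes, by population. The SCN2A ratio is highest in the N libraries and lowest, at 0.549 and 0.130, in bIP, while the CACNA1E ratio of bRG 2 (5.76) lies above that of N 1 (4.56).

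Of the 4 sodium beta subunits, SCN3B and SCN2B were higher in N than in aRG, and SCN3B was also higher in bIP. SCN3B, the beta3 subunit of the embryonic brain, was at 25.3 and 32.3 CPM in aRG, 65.8 and 154 in bRG, 195 and 144 in bIP and 532 and 571 in N. The N libraries were highest, the aRG libraries lowest, and bRG 2 exceeded bIP 2. The N mean exceeded aRG by 4.26 ± 0.40, 19.1-fold (adjusted p = 4.42e-05), bRG by 2.32 ± 0.37 (adjusted p = 0.00278) and bIP by 1.70 ± 0.36 (adjusted p = 0.0278). bIP exceeded aRG by 2.56 ± 0.37 (adjusted p = 0.00308). The N minus bIP call was lost without bIP 2 or N 2 (adjusted p = 0.0737 to 0.191), and the N minus bRG difference was 3.04 without bRG 2.

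SCN2B, which binds the alpha subunit through a disulphide bond, was at 1.57 and 4.33 CPM in aRG, 3.53 and 12.9 in bRG, 5.83 and 5.07 in bIP and 21.4 and 53.2 in N. The N libraries were above the rest, and N 2 above N 1. In N it exceeded aRG by 3.65 ± 0.71 (adjusted p = 0.00564), 12.5-fold, with 2.85 without N 2, 3.04 without aRG 1 and 4.54 without aRG 2, all called. N minus bRG (2.19 ± 0.67, adjusted p = 0.0835) and N minus bIP (2.77 ± 0.68, adjusted p = 0.0569) did not pass with all libraries. The first passed without aRG 1, aRG 2, bRG 2 or N 1 (adjusted p = 0.0121 to 0.0394), and the second without aRG 1, aRG 2, bRG 1, bRG 2 or N 1 (adjusted p = 0.00556 to 0.0192).

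SCN4B was at 5.15 and 13.0 CPM in aRG, 7.36 and 16.6 in bRG, 1.51 and 6.81 in bIP and 1.55 and 4.66 in N. The number 2 library was the higher of its pair in all 4 populations. N minus bRG was -1.95 ± 0.80 (adjusted p = 0.21), not called, but it was called when no filter on low counts was applied (-1.97, adjusted p = 0.0197). SCN2B and SCN4B are neighbours in RefSeq and share an overlapping gene, CD3E, so unstranded reads there could count for more than 1 gene.

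The calcium alpha1 subunits had the largest share of calls in N against aRG, with 8 of 10 higher, where 4.87% of all genes were. In N against bRG 6 of 10 were higher, where 2.62% of all genes were. In bIP against aRG 3 of 10 were higher, where 1.34% of all genes were. Their median log2 difference between N and aRG was 2.77, against -0.08 for all genes. These subunits fall into high-voltage L-type channels (CACNA1C, CACNA1D, CACNA1F, CACNA1S), the P/Q, N and R types that trigger transmitter release (CACNA1A, CACNA1B, CACNA1E), and the low-voltage T type (CACNA1G, CACNA1H, CACNA1I).

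CACNA1A (P/Q type) was at 60.7 and 73.0 CPM in aRG, 79.7 and 143 in bRG, 299.9 and 347 in bIP and 462 and 614 in N. Each population lay above the one before it with no overlap. It exceeded aRG by 2.27 ± 0.31 (adjusted p = 0.00216) in bIP and by 3.01 ± 0.32 (adjusted p = 0.000107) in N, and bRG by 1.54 ± 0.31 (adjusted p = 0.0355) in bIP and 2.27 ± 0.31 (adjusted p = 0.00116) in N. The bIP minus bRG call was lost without bRG 1, bIP 1 or bIP 2 (adjusted p = 0.0765 to 0.24). N and bIP differed by 0.73 ± 0.30 (adjusted p = 0.267), not called.

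CACNA1B (N type) was at 4.44 and 10.5 CPM in aRG, 16.1 and 52.4 in bRG, 57.2 and 48.1 in bIP and 104 and 203 in N. The aRG libraries were lowest and the N libraries highest, while bRG 2 fell between the bIP libraries. The N level exceeded aRG by 4.35 ± 0.60 (adjusted p = 0.000546), 20.4-fold, and bRG by 2.16 ± 0.54 (adjusted p = 0.0352). The second call was lost without bRG 1 or N 2 (adjusted p = 0.144 to 0.169), and the difference was 3.23 without bRG 2. bIP exceeded aRG by 2.81 ± 0.56 (adjusted p = 0.0179), not called without aRG 1 (adjusted p = 0.0819). Without aRG 2 the differences from aRG were 3.57 in bIP and 5.09 in N. N minus bIP (1.54 ± 0.53, adjusted p = 0.176) was called without bRG 1 or bRG 2 (adjusted p = 0.034 to 0.0355).

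CACNA1E (R type) had the largest fold of the 40 genes between N and aRG, and also wide spreads. It was at 5.47 and 23.3 CPM in aRG, 20.7 and 87.4 in bRG, 54.2 and 50.6 in bIP and 279 and 620.2 in N. Number 2 was several times number 1 in aRG and bRG, and the bRG libraries spanned those of bIP. N exceeded aRG by 4.96 ± 0.77 (adjusted p = 0.00125), 31.1-fold, and the value ran from 4.20 without aRG 1 and 4.27 without N 2 to 6.34 without aRG 2. N exceeded bRG by 3.06 ± 0.71 (adjusted p = 0.0237), which was 2.34 without bRG 1, 4.42 without bRG 2 and not called without N 2 (adjusted p = 0.0813). N exceeded bIP by 3.10 ± 0.71 (adjusted p = 0.0395), lost without bIP 1, bIP 2 or N 2 (adjusted p = 0.098 to 0.156). bIP minus aRG (1.86 ± 0.68, adjusted p = 0.227) was called without aRG 2, bRG 1 or bRG 2 (adjusted p = 0.0263 to 0.0351).

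The L-type subunits CACNA1C and CACNA1D were highest in N. CACNA1C (Cav1.2) was at 12.4 and 12.4 CPM in aRG, 17.2 and 36.6 in bRG, 33.4 and 26.9 in bIP and 85.0 and 130.0 in N. Its N libraries lay above the others, and bRG spanned bIP. The N mean exceeded aRG by 3.12 ± 0.40 (adjusted p = 0.000324), bRG by 2.00 ± 0.38 (adjusted p = 0.00783) and bIP by 1.83 ± 0.38 (adjusted p = 0.0232). The difference from bRG was 1.53, adjusted p = 0.0584 without bRG 1 and 2.62 without bRG 2, and that from bIP was lost without bIP 1, bIP 2 or N 2 (adjusted p = 0.0543 to 0.156). bIP minus aRG (1.28 ± 0.37, adjusted p = 0.106) was called without bRG 1 or bRG 2 (adjusted p = 0.0367 to 0.0382).

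CACNA1D (Cav1.3), which opens at lower voltage than CACNA1C, was at 7.87 and 5.01 CPM in aRG, 8.20 and 15.7 in bRG, 15.7 and 15.7 in bIP and 65.2 and 82.1 in N. The N libraries stood apart from the other 6. In N it exceeded aRG by 3.52 ± 0.41 (adjusted p = 0.000194), 11.4-fold, bRG by 2.62 ± 0.40 (adjusted p = 0.00214) and bIP by 2.23 ± 0.39 (adjusted p = 0.0104), the last lost without bIP 2 (adjusted p = 0.0649). The retinal CACNA1F ran from 0.737 to 3.63 CPM and the skeletal muscle CACNA1S from 0.503 to 2.25 over the 8 libraries, and neither was called.

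The 3 T-type subunits differed in where they were highest. CACNA1G (Cav3.1) was at 13.6 and 9.97 CPM in aRG, 14.3 and 15.2 in bRG, 112 and 124 in bIP and 61.2 and 44.6 in N. The bIP libraries were the highest, N came next, and both radial glia populations were far below. bIP exceeded aRG by 3.32 ± 0.31, 9.99-fold (adjusted p = 0.000539), and bRG by 3.00 ± 0.31 (adjusted p = 0.00547). The N level exceeded aRG by 2.16 ± 0.30 (adjusted p = 0.00055) and bRG by 1.84 ± 0.29 (adjusted p = 0.0029). The N minus bIP difference of -1.16 ± 0.29 (adjusted p = 0.0589) did not pass, but it passed in DESeq2 (adjusted p = 0.00917) and without aRG 1, aRG 2, bRG 1 or bRG 2 (adjusted p = 0.0391 to 0.0428).

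CACNA1I (Cav3.3) was at 7.39 and 8.26 CPM in aRG, 9.47 and 22.0 in bRG, 8.31 and 12.0 in bIP and 44.5 and 45.8 in N. In contrast to CACNA1G its bIP libraries overlapped those of bRG, and N stood above all. N exceeded aRG by 2.53 ± 0.44 (adjusted p = 0.00254) and bIP by 2.15 ± 0.43 (adjusted p = 0.0202), the latter lost without bIP 1, bIP 2 or N 2 (adjusted p = 0.0589 to 0.107). N minus bRG (1.52 ± 0.42, adjusted p = 0.0553) was called without bRG 2, bIP 1 or bIP 2 (adjusted p = 0.0155 to 0.0465). CACNA1H (Cav3.2) was at 42.6 and 53.2 CPM in aRG, 55.9 and 50.2 in bRG, 100.3 and 47.3 in bIP and 141 and 97.3 in N. bIP 1 exceeded N 2, so bIP overlapped N. The N minus aRG difference of 1.32 ± 0.35 (adjusted p = 0.0354) was lost without aRG 1, aRG 2 or N 1 (adjusted p = 0.0748 to 0.207), and N minus bRG (1.17 ± 0.35, adjusted p = 0.0813) was called without bIP 1 or bIP 2 (adjusted p = 0.0348 to 0.0363). The ratio of CACNA1E to CACNA1G counts was 0.485 and 0.408 in bIP, 4.56 and 13.9 in N, 0.401 and 2.34 in aRG, and 1.45 and 5.76 in bRG, so the bIP and N libraries were separate while aRG 1 was below both bIP libraries.

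CACNA2D1, an alpha2delta subunit and a receptor for gabapentin-type drugs, peaked in bIP. It was at 83.2 and 59.7 CPM in aRG, 79.2 and 54.0 in bRG, 316 and 281 in bIP and 145 and 96.2 in N. The bIP libraries were the highest 2 of the 8, and aRG and bRG overlapped. bIP exceeded aRG by 2.06 ± 0.31 (adjusted p = 0.00369), 4.18-fold, and bRG by 2.16 ± 0.31 (adjusted p = 0.00829), and CACNA2D1 fell by 1.30 on the log2 scale from bIP to N (SE 0.30, adjusted p = 0.0437). That fall was not called without bIP 1, bIP 2 or N 2 (adjusted p = 0.116 to 0.254). N minus aRG was 0.76 ± 0.30 (adjusted p = 0.157), not called.

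CACNA2D3 was at 4.84 and 2.86 CPM in aRG, 2.01 and 3.37 in bRG, 3.03 and 2.56 in bIP and 16.7 and 8.80 in N. The N libraries were highest. N exceeded bRG by 2.24 ± 0.59 (adjusted p = 0.0441), a call lost without bRG 1, bRG 2 or N 1 (adjusted p = 0.107 to 0.357), and N minus aRG was 1.73 ± 0.58 (adjusted p = 0.0907). CACNA2D4, a retinal subunit, ran from 0.747 to 4.13 CPM over the 8 libraries. CACNA2D2 had 2 to 13 counts per library on the chimpanzee genome.

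The 4 calcium channel beta subunits, which bind the inside of the pore subunit, were detected in every library, and 2 of them were called in N against aRG. CACNB4 was at 61.2 and 55.0 CPM in aRG, 52.7 and 74.8 in bRG, 117 and 121 in bIP and 184 and 185 in N. N lay above bIP and bIP above both radial glia populations. The N mean exceeded aRG by 1.67 ± 0.26 (adjusted p = 0.00129), 3.17-fold, and bRG by 1.53 ± 0.26 (adjusted p = 0.00418), the latter lost without bRG 1 (adjusted p = 0.0615). bIP minus aRG (1.03 ± 0.26, adjusted p = 0.0562) was called without bRG 1 or bRG 2 (adjusted p = 0.0497 to 0.05).

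CACNB1 was at 32.8 and 46.2 CPM in aRG, 33.3 and 68.4 in bRG, 58.8 and 71.9 in bIP and 83.4 and 99.0 in N. The N libraries were highest, and bRG overlapped both aRG and bIP. Its N minus aRG difference of 1.21 ± 0.35 (adjusted p = 0.0495) sat at the threshold and was lost with DESeq2's size factors (1.19, adjusted p = 0.0571) and without aRG 1, aRG 2, bIP 2, N 1 or N 2 (adjusted p = 0.0507 to 0.301). N minus bRG (0.84 ± 0.35, adjusted p = 0.213) was called without bRG 2 (adjusted p = 0.0489). CACNB2 was at 40.3 and 43.1 CPM in aRG, 46.3 and 42.7 in bRG, 46.8 and 43.2 in bIP and 61.7 and 78.2 in N. CACNB3, the partner of many neuronal N-type channels, was at 115 and 167 CPM in aRG, 95.8 and 158 in bRG, 162 and 282 in bIP and 196 and 220.1 in N. Neither was called, with N minus aRG at 0.74 ± 0.26 (adjusted p = 0.11) for CACNB2 and 0.56 ± 0.33 (adjusted p = 0.367) for CACNB3.

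Of the 8 gamma subunits, CACNG2 and CACNG8 were higher in N than in aRG, and CACNG2 and CACNG5 were higher in bIP than in aRG. CACNG8, an AMPA receptor regulator of the forebrain, was at 120.2 and 122 CPM in aRG, 132 and 197 in bRG, 150.0 and 133 in bIP and 425 and 704 in N. The 6 progenitor libraries lay between 120.2 and 197 CPM, and both N libraries were above them. In N it exceeded aRG by 2.22 ± 0.30 (adjusted p = 0.000538), 4.66-fold, bRG by 1.78 ± 0.30 (adjusted p = 0.00413) and bIP by 2.00 ± 0.30 (adjusted p = 0.00451), and these 3 calls held without any 1 library.

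CACNG2 (stargazin), the founding member of that group, was at 0.826 and 0.884 CPM in aRG, 4.18 and 5.45 in bRG, 9.55 and 2.87 in bIP and 18.2 and 11.1 in N. The aRG libraries were lowest, the N libraries highest, and bIP spanned bRG. The N level exceeded aRG by 4.09 ± 0.68 (adjusted p = 0.00197), 17.0-fold. bIP exceeded aRG by 2.85 ± 0.65 (adjusted p = 0.0356), which was lost without aRG 1, aRG 2 or bIP 1 (adjusted p = 0.146 to 0.299) and was 1.73 without bIP 1 and 3.47 without bIP 2.

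CACNG5 was at 2.52 and 1.53 CPM in aRG, 2.56 and 2.80 in bRG, 41.7 and 17.9 in bIP and 19.7 and 2.16 in N. The libraries of a pair differed widely in bIP and N, where N 1 exceeded bIP 2 and N 2 fell among the radial glia. bIP exceeded aRG by 3.88 ± 0.85 (adjusted p = 0.0288), 14.7-fold, not called without aRG 1, aRG 2 or bIP 1 (adjusted p = 0.0668 to 0.123) and 3.14 without bIP 1. The other CACNG5 differences did not pass with all libraries. N minus aRG (2.44 ± 0.81, adjusted p = 0.0863) passed without bRG 1, bRG 2 or N 2 (adjusted p = 0.00191 to 0.0423), and bIP minus bRG (3.47 ± 0.83, adjusted p = 0.085) without aRG 1, aRG 2, N 1 or N 2 (adjusted p = 0.0026 to 0.0388). N minus bRG passed without N 2 (adjusted p = 0.00857) and N minus bIP without N 1 (adjusted p = 0.0117).

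CACNG4 was at 15.7 and 16.7 CPM in aRG, 14.9 and 22.6 in bRG, 22.6 and 11.7 in bIP and 26.0 and 20.3 in N. CACNG7 was at 14.7 and 14.2 CPM in aRG, 11.7 and 18.7 in bRG, 19.4 and 19.1 in bIP and 22.8 and 28.7 in N. Neither was called. CACNG3 ran from 1.43 to 6.39 CPM over the 8 libraries, CACNG6 from 0.177 to 1.56, and CACNG1, the skeletal muscle gamma subunit, from 0.0432 to 1.22, with 1 to 31 counts.

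Between the intermediate progenitors and the basal radial glia, 4 of the 40 genes (10%) were higher and none lower: CACNA1A, CACNA1G, CACNA2D1 and SCN3A. Over all genes 0.458% were higher and 0.574% lower. The median log2 difference was 0.24 for the channel genes and 0.00 for all. Between N and bRG, 13 of 40 (32.5%) were higher and 1 was lower, where 2.62% of all genes were higher and 3.39% lower, and the medians were 0.93 and -0.11. Between N and bIP, 8 of 40 (20%) were higher and 1, CACNA2D1, was lower, where 1.06% of all genes were higher and 1.48% lower, and the medians were 0.46 and -0.10. Without bIP 2 the N minus bIP count was 2, SCN2A and CACNG8. These comparisons share libraries, so the counts are not independent of one another.

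No channel gene was called between basal and apical radial glia by edgeR, where 0.00283% of all genes, 1 of 35382, was called in either direction. At an unadjusted p under 0.05, 12 of the 40 were higher in bRG and 0 lower. The share of all genes at that unadjusted threshold was not computed, so this count is not read as a result about the family. Of the 40 log2 differences, 35 were above 0, with a median of 0.43 against 0.02 for all genes. The share of all genes above 0 was not computed. DESeq2 called 4 of 40 higher, where it called 0.332% of 26179 genes higher. These 4 were SCN3B (1.93 ± 0.37 in edgeR, unadjusted p = 0.000181, adjusted p = 0.477, adjusted p in DESeq2 = 0.00213), SCN2A (1.88 ± 0.40, 0.000511, 0.53 and 0.00666 in the same order), CACNA1B (2.19 ± 0.55, 0.00176, 0.667 and 0.0164) and CACNG2 (2.49 ± 0.64, 0.00218, 0.698 and 0.0219). Both bRG libraries exceeded both aRG libraries for each of the 4, but these libraries gave the DESeq2 calls, so this is no separate support. Genes that neither test called, such as CACNA1G, were separated in the same way. In edgeR without bRG 1, SCN3B, CACNA1B and SCN2A passed (adjusted p = 0.00364, 0.00989 and 0.0458). The neuron marker sum was 891 and 1737 CPM in bRG and 403 and 828 in aRG, without overlap, and its part in these differences was not tested. The choroid plexus and mesenchyme sums were higher in aRG, and their part was not tested either.

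Of 10 tested partners that anchor or regulate sodium channels, 7 were higher in N than in aRG and none lower. The median log2 difference was 2.24. Over all genes, 4.87% were higher and 4.80% lower in N than in aRG, and 1.34% higher and 1.50% lower in bIP than in aRG. These shares also stand beside the partner lists below, all of which were chosen with earlier results of these data known. ANK3 (ankyrin-G), the scaffold of the axon initial segment, was at 37.0 ± 9.36 CPM in aRG, 232 ± 41.4 in bIP and 305 ± 42.1 in N, each as mean ± SD of 2 libraries. NFASC (neurofascin), an adhesion molecule of the initial segment, was at 137 ± 39.4, 1093 ± 80.2 and 1256 ± 98.9 CPM in the same order. Both were called in bIP (log2 2.65 and 3.00) and in N (log2 3.04 and 3.20). The adhesion molecules NRCAM and CNTN1 exceeded aRG in N by 3.33 ± 0.44 (adjusted p = 0.000393) and 4.16 ± 0.42 (adjusted p = 7.27e-05), and FGF13 and FGF14, intracellular regulators of sodium channels, by 2.17 ± 0.30 (adjusted p = 0.000596) and 1.84 ± 0.44 (adjusted p = 0.0198). In bIP only ANK3 and NFASC of the 10 were called.

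In the complex of the sodium leak channel, which sets resting excitability, 3 accessory genes were called higher than in aRG. The pore gene and 1 other accessory gene were not. The pore gene NALCN was at 5.31 and 6.63 CPM in aRG and 5.49 and 5.48 in N, a difference of -0.12 ± 0.48 (adjusted p = 0.927), and was not called. UNC79, UNC80 and FAM155A (now NALF1), which the complex needs to reach the membrane or conduct, were called higher in both bIP and N. UNC79 was at 19.3 and 25.3 CPM in aRG, 142 and 115 in bIP and 344 and 275 in N, and N exceeded aRG by 3.79 ± 0.29 (adjusted p = 9.44e-06). UNC80 exceeded aRG in N by 2.46 ± 0.35 (adjusted p = 0.000673), FAM155A by 3.69 ± 0.44 (adjusted p = 0.000218) and FAM155B (now NALF2) by 1.23 ± 0.50 (adjusted p = 0.164), the last not called. A test of NALCN against its partners was not run.

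Of 14 tested partners of calcium channels, 6 were higher and 1 lower in N than in aRG. Only 7 of the 14 log2 differences were above 0. In bIP against aRG, edgeR called 2 higher and 0 lower, and DESeq2 called 3 higher and 3 lower. Over all genes DESeq2 called 1081 of 30118 higher there, and 2282 in either direction. SYT1, the calcium sensor of synaptic vesicles, exceeded aRG in N by 3.23 ± 0.33 (adjusted p = 7.08e-05), the calcium-binding CABP1 by 3.20 ± 0.56 (adjusted p = 0.00279), and the active zone organiser RIMS1 by 1.99 ± 0.38 (adjusted p = 0.00496). CACHD1, an alpha2delta-like protein, was lower in N (-2.08 ± 0.40, adjusted p = 0.00489). REM2, a small GTPase that restrains calcium channels, was at 7.67 and 7.46 CPM in aRG, 59.5 and 73.2 in bIP and 30.7 and 18.7 in N. It was called higher in bIP than in aRG (3.13 ± 0.36, adjusted p = 0.000835), and in N than in aRG (1.71 ± 0.34, adjusted p = 0.00669), and lower in N than in bIP (-1.43 ± 0.34, adjusted p = 0.0464). CALM3 was listed at 0 in all 8 libraries on the chimpanzee genome and held 8988 counts on the human one, so its 0 says nothing of the cells.

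Among 19 genes of calcium stores, pumps and exchangers, 7 were higher in N than in aRG and none lower. The 3 sodium-calcium exchangers, which use the sodium gradient to expel calcium, were all among them, with log2 differences of 3.91 ± 0.44 (adjusted p = 0.000151) for SLC8A1, 4.48 ± 0.74 (adjusted p = 0.00195) for SLC8A2 and 4.28 ± 0.50 (adjusted p = 0.000181) for SLC8A3. RYR2, a store release channel, exceeded aRG by 3.01 ± 0.55 (adjusted p = 0.00388), and the plasma membrane pumps ATP2B3 and ATP2B4 by 2.56 ± 0.54 (adjusted p = 0.0088) and 1.26 ± 0.26 (adjusted p = 0.0071). In bIP, SLC8A2 and SLC8A3 were called higher and the store-operated channel gene ORAI1 lower than in aRG (-2.62 ± 0.64, adjusted p = 0.0497).

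The AMPA receptor subunits, which the gamma proteins regulate, were called higher in N than in aRG for 3 of 4 genes: GRIA2 by 5.24 ± 0.41 (adjusted p = 1.06e-05), GRIA1 by 4.14 ± 0.63 (adjusted p = 0.00103) and GRIA3 by 2.87 ± 0.52 (adjusted p = 0.00337). GRIA4 differed from this order. It was at 8.57 and 2.98 CPM in aRG, 46.0 and 53.1 in bIP and 20.1 and 12.3 in N, called higher in bIP than in aRG (3.11 ± 0.50, adjusted p = 0.00516) and not in N (1.50 ± 0.47, adjusted p = 0.0711). REST is the repressor of many neuronal genes, sodium channel genes among them, and it works with the corepressors RCOR1 to RCOR3 and the histone deacetylases HDAC1 and HDAC2. REST was at 131 and 83.1 CPM in aRG, 110.2 and 73.9 in bRG, 29.2 and 24.6 in bIP and 36.5 and 26.1 in N. In N it was lower than in aRG (-1.77 ± 0.33, adjusted p = 0.00422), as were RCOR1 (-1.31 ± 0.31, adjusted p = 0.0186) and HDAC1 (-0.90 ± 0.26, adjusted p = 0.0472), while HDAC2 (0.60 ± 0.25, adjusted p = 0.177), RCOR3 (-0.16 ± 0.25, adjusted p = 0.779) and RCOR2 (0.12 ± 0.30, adjusted p = 0.877) were not called. REST was already lower in bIP (-1.99 ± 0.33, adjusted p = 0.00663), where RCOR2 was higher (1.48 ± 0.31, adjusted p = 0.0214).

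Counting the same libraries on the human genome made every call again and 8 more. There 16353 genes were tested, not 35382, so the adjustment and the background differed. Of the 16353, 584 were higher in bIP than in aRG and 1577 in N than in aRG. Another 912 were higher in N than in bRG and 377 in N than in bIP, where 938 were called in either direction. The human table held 39 of the 40 genes, without CACNA1F, and each of the 56 calls made on the chimpanzee genome was made there too. It added CACNA1C and CACNB4 in bIP minus aRG, CACNA2D2 and CACNA2D3 in N minus aRG, CACNA1I and SCN9A in N minus bRG, and CACNA1G and CACNA2D3 in N minus bIP. Levels also differed between the 2 genomes. The log2 ratio of CPM, chimpanzee over human, had a median over the libraries of -0.59 for CACNA1G, -0.56 for CACNA2D3 and 0.07 for CACNA1H. The shift was far larger in 1 gene. CACNA2D2, an alpha2delta subunit of cerebellar and other neurons, had 6, 3, 4, 13, 6, 2, 3 and 13 counts on the chimpanzee genome and 85, 163, 223, 177, 242, 183, 305 and 222 on the human one, in the order of the 2 aRG, bRG, bIP and N libraries. Its log2 ratio of CPM, chimpanzee over human with 1 CPM added to each, was -4.47 to -2.72. It was the single channel gene past 1 in the same direction in all 8 libraries, as were 906 of 15062 shared symbols. On the human genome N exceeded aRG by 1.36 ± 0.38 (adjusted p = 0.0297), and on the chimpanzee genome the difference was 1.05 ± 1.88 (adjusted p = 0.816). The chimpanzee value of this gene is therefore not read as its level. It remains in the sums, counts and medians over the 40 genes, and among the 26 with their highest mean in N.

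**Figure D4:**
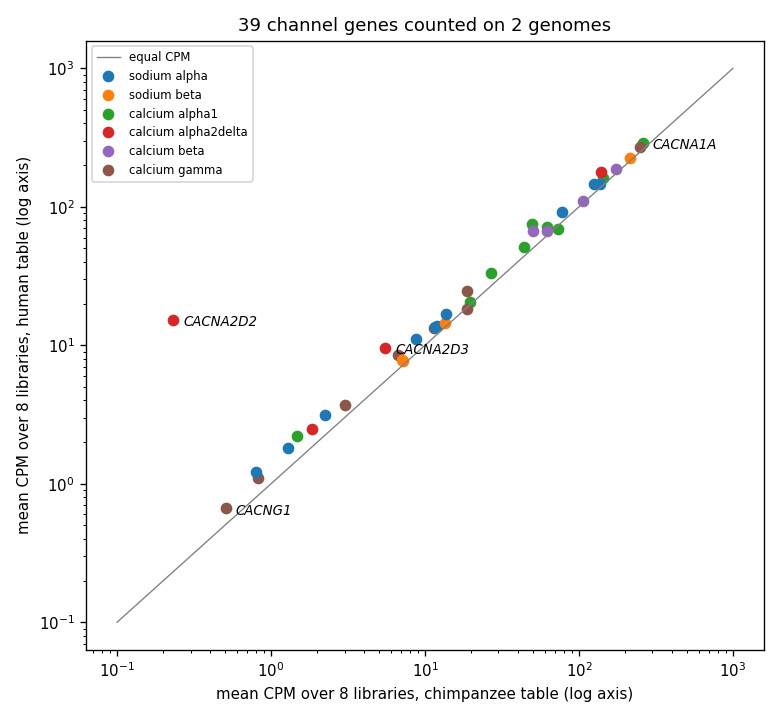
Mean CPM over the 8 libraries of 39 channel genes counted on the chimpanzee genome (horizontal) and on the human genome (vertical), both on log axes, with the line of equal CPM. CACNA2D2 lies far above the line, with 50 counts in all on the chimpanzee genome and 1600 on the human one.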

How the data were processed

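The submitters' processing notes name STAR, panTro6 and hg38. Which STAR version, annotation, counter and strand setting applied is not given in the sources used here. Deposited by the authors were 2 tables of raw read counts by gene symbol, for the chimpanzee and the human genome. The protocol in the labels amplified cDNA with 12 to 17 PCR cycles, names no molecular identifiers and does not mark strand. A row with no name, 0.00545% to 0.00771% of counts, was left out, and 0 columns had no label.

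The chimpanzee counts were filtered (filterByExpr, minimum count 10), scaled by TMM and fitted in 1 model over the 8 libraries with edgeR 4.0.16 (glmQLFTest, two-sided, 4 residual degrees of freedom, R 4.3.3), with Benjamini-Hochberg adjustment in each of 6 comparisons and a threshold of 0.05. Levels are TMM-scaled CPM. Alternatives were the human table, DESeq2 1.42.0 and its size factors, no filter, halved counts (chimpanzee totals over shared symbols were 1.70 to 1.74 times the human ones), a replicate block and leaving out each library. Between the paired libraries, chi-square per gene was 40.6 to 63.5, above sampling noise.

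The members and all lists were chosen with earlier results of these data known. Members called in a comparison or with a mean of at least 10 CPM are given in every library. Of each of 6 partner lists, up to 6 genes with the smallest adjusted p in N minus aRG are named, plus genes that single out a pattern in bIP, chosen after their values were seen. Of each of 10 marker lists the first 2 genes are named, with others where they bear on reading the sum. SPTBN4, a partner gene, was not analysed here. Some genes are not reported here, though the counts over members and lists include them. Gene lengths were not used, so levels are not compared between genes. RefSeq (NHGRI_mPanTro3-v2.0) was used only for neighbours.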

Additional observations from a re-analysis of the deposited data

How the results depend on the processing

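Of the 56 calls in the 6 comparisons, all kept their direction in every alternative run, and all passed in DESeq2, the human table, the halved counts, without a filter and with the replicate block; DESeq2's size factors lost 1, CACNB1 in N minus aRG. Leaving out 1 library lost between 2 (bRG 2) and 11 (bIP 2) of the 56. The count of channel genes called was 0 in bRG minus aRG, and 6 without a filter, 4 in DESeq2 and 0 to 3 when 1 library was left out. That count was 10 in bIP minus aRG (5 to 13 with 1 library left out, lowest without aRG 1 and 6 without bIP 1), 19 in N minus aRG (16 to 20), 4 in bIP minus bRG (2 to 5, lowest without bRG 1 or bIP 2), 14 in N minus bRG (9 to 17, lowest without bRG 1) and 9 in N minus bIP (2 to 12, lowest without bIP 2, 4 without N 2 and 5 without bIP 1). The cause of these shifts was not tested.

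Whether same-numbered libraries of different populations share more than a number is not stated in the labels. The number 1 minus number 2 differences correlated by 0.0915 to 0.203 over 35382 genes in the 6 pairs of populations, all above 0. A factor shared by number was not tested, and the main fit did not include one. With the replicate block the counts of channel genes called were 2, 14, 22, 7, 22 and 14 in the order bRG minus aRG, bIP minus aRG, N minus aRG, bIP minus bRG, N minus bRG and N minus bIP. Among the genes added, SCN4B was lower in N than in aRG (-1.61, adjusted p = 0.0397) and than in bRG (-2.05, adjusted p = 0.0149).

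Over all genes the counts called in that order were 1, 1002, 3421, 365, 2128 and 900. On the human genome, with 16353 genes tested, they were 1, 1191, 3145, 484, 1988 and 938. On the chimpanzee genome they were 114, 2282, 5303, 1167, 3835 and 2577 in DESeq2. They were 215, 2159, 4526, 1187, 3280 and 2264 without a filter, and 39, 2122, 4960, 1121, 3594 and 2165 with the replicate block. With 1 library left out they ranged from 1 to 85 (without bRG 1), 582 (without bIP 2) to 1428, 2382 to 3540, 140 (without bIP 2) to 642, 1190 (without bRG 1) to 2313, and 415 (without bIP 2) to 1265. With 2 libraries a population and 4 residual degrees of freedom, a difference that missed the threshold is not shown to be absent.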
